A study of Mus musculus with 8 samples.

Results

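The comparison of *Setdb1* KO mESCs with WT mESCs rests on 4 of the 8 RNA-seq libraries of the series, chosen by their titles: 2 biological replicates of mouse embryonic stem cells (mESCs) in which *Setdb1* was deleted and 2 of the untreated cells. All 4 libraries come from 1 line, *Setdb1* conditional KO mESCs #33-6, grown on gelatin with LIF. The KO libraries received 800 nM 4-OHT (4-hydroxytamoxifen, which switches on the recombinase that removes the conditional allele) for 5 days, and the libraries called WT received nothing. The other 4 libraries are of the same line treated with UNC0642, an inhibitor of the H3K9 methyltransferases G9a and GLP, at 2 µM for 3 days, alone or, by the labels, after 2 days of 4-OHT. Exposure to 4-OHT and loss of SETDB1 cannot be told apart in these libraries, and the values describe 1 line.

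SETDB1 is a histone methyltransferase that places H3K9me3, a mark of silent chromatin. It is brought to retrotransposons by KRAB zinc finger proteins through the co-repressor TRIM28 and is held in the nucleus by ATF7IP. In mESCs it is best known for keeping endogenous retroviruses silent, together with genes that lie near such elements or that normally work in germ cells. The comparison asks which genes and transposable elements change in level when it is removed.

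The files hold counts for 24062 genes and 1153 subfamilies of transposable elements and satellites, and 15313 genes and 932 subfamilies had enough counts to be tested. Total counts were 11702590 and 25121876 in WT replicates 1 and 2 and 26807807 and 16416611 in KO replicates 1 and 2. Levels are given as CPM (counts divided by library size in megareads, with sizes scaled by TMM), in this order of libraries. The detection floor was set at 3 counts per library, or 0.108 to 0.261 CPM, which covers counting error only. A feature was called raised or lowered at a Benjamini-Hochberg adjusted p under 0.05 in edgeR's quasi-likelihood test, fitted on all 8 libraries with the replicate number as a block. CPM is not divided by gene length, so levels are compared between libraries and not between genes. A feature absent from WT libraries can only pass the count filter through libraries in which it is high, so counts of list members are given over the members tested and describe the libraries.

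*Setdb1* itself (chromosome 3, 95323525 to 95357202, GRCm38) was at 169 and 127 CPM in WT and at 47.3 and 51.0 CPM in KO libraries, with no overlap between the groups. It fell by 1.56 on the log2 scale (SE 0.27, edgeR adjusted p = 0.0164). The call was lost without KO replicate 1 (edgeR adjusted p = 0.166) and without the replicate block (0.181). The counts cover the whole gene, including exons outside the removed part, so that they check the labels only in part. Over all tested genes 2.8% were raised and 0.522% lowered, the shares against which counts in the gene lists are read. Among 13 genes for H3K9 methyltransferases and their partners, *Setdb1* was the 1 lowered gene and *Atf7ip*, whose protein stabilizes SETDB1, was the 1 raised gene. *Atf7ip* was at 102 and 94.1 CPM in WT and 341 and 211 CPM in KO libraries (log2 fold change 1.43, SE 0.30, edgeR adjusted p = 0.0339, without the block 0.326). Its call was lost on leaving out WT replicate 1 (0.0950), KO replicate 1 (0.178) or KO replicate 2 (0.116). None of the other 11 genes of the list was called by edgeR, with 1, *Atf7ip2*, at an unadjusted p under 0.05 and called by DESeq2 on all 8 libraries. The log2 fold change was -0.79 for *Prdm16*, 0.83 for *Mecom* (also called *Prdm3*), which had under 1 CPM in each library, -0.50 for *Ehmt2* (G9a), -0.31 for *Ehmt1* (GLP), -0.04 for *Suv39h1* and 0.17 for *Suv39h2*. *Trim28* had 395 and 1301 CPM in WT and 707 and 800 CPM in KO libraries, a spread in which the groups overlap. Of 11 genes for HP1 proteins, the HUSH complex and ATRX-DAXX, *Resf1*, a regulator of retroelement silencing, was raised from 126 and 107 to 1051 and 432 CPM (log2 fold change 2.53, SE 0.30, edgeR adjusted p = 0.00259, without the block 0.0821). Of 11 H3K9 demethylase genes, *Kdm4d* was raised, from 0 and 5 counts to 20 and 28 counts, a call that no fit without 1 library kept. None of 10 tested genes that write or erase DNA methylation was called by edgeR (1 at an unadjusted p under 0.05, and 1 by DESeq2 on all 8 libraries).

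In *Setdb1* KO mESCs 429 of 15313 tested genes (2.8%) were raised and 80 (0.522%) were lowered. With the fold threshold of the study, 206 genes (1.35%) were raised and 2 (0.0131%) lowered by more than 10-fold. The 2 are *Ankrd34a* and *Gjb1*. Of transposable element subfamilies 189 of 932 (20.3%) were raised, and 0 (0%) were lowered by edgeR or by DESeq2, with 0 lower at an unadjusted p under 0.05. The raised genes had a median log2 fold change of 3.21, and those lowered a median of -1.59, while the median was -0.07 over all genes and 0.90 over all subfamilies. The raised genes started low: 192 of 429 (44.8%) were under 1 CPM in WT against 16.8% of all tested genes, and 37 had no count in either WT library. The lowered genes had a median of 39.0 CPM in WT, against 1.39 CPM for the raised and 14.9 CPM for all genes. The count filter and the call shape this difference. Genes with almost no counts in WT are tested only through other libraries and have no room to be called lowered. In 427 of the raised genes, 75 of the lowered genes and 181 of the raised subfamilies the KO libraries did not overlap with the WT libraries. Over all tested features KO lay above WT without overlap in 15.4% of genes and 52.7% of subfamilies, and below it in 13.9% of genes and 0.322% of subfamilies.

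These counts depend on the replicate block. Without it 135 genes were raised and 1 was lowered, and 46 subfamilies were raised. All 135 and the 1 were among those called with the block. DESeq2 on the 4 libraries alone, the tool of the study, called 298 of the 429 raised and 16 of the 80 lowered genes. Leaving out KO replicate 1 gave 242 raised and 16 lowered genes and 99 raised subfamilies, and leaving out WT replicate 1 gave 180 lowered genes. Of the 429 raised genes 199 were called whichever of the 4 libraries was left out, but only 4 of the 80 lowered genes (*Sema3e*, *Fam81a*, *Olig1* and *Ifitm1*). At the edge of the call, *Gm13119* was inside with an edgeR adjusted p of 0.0494 and *Gm8300* was outside with 0.0505.

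**Figure D1:**
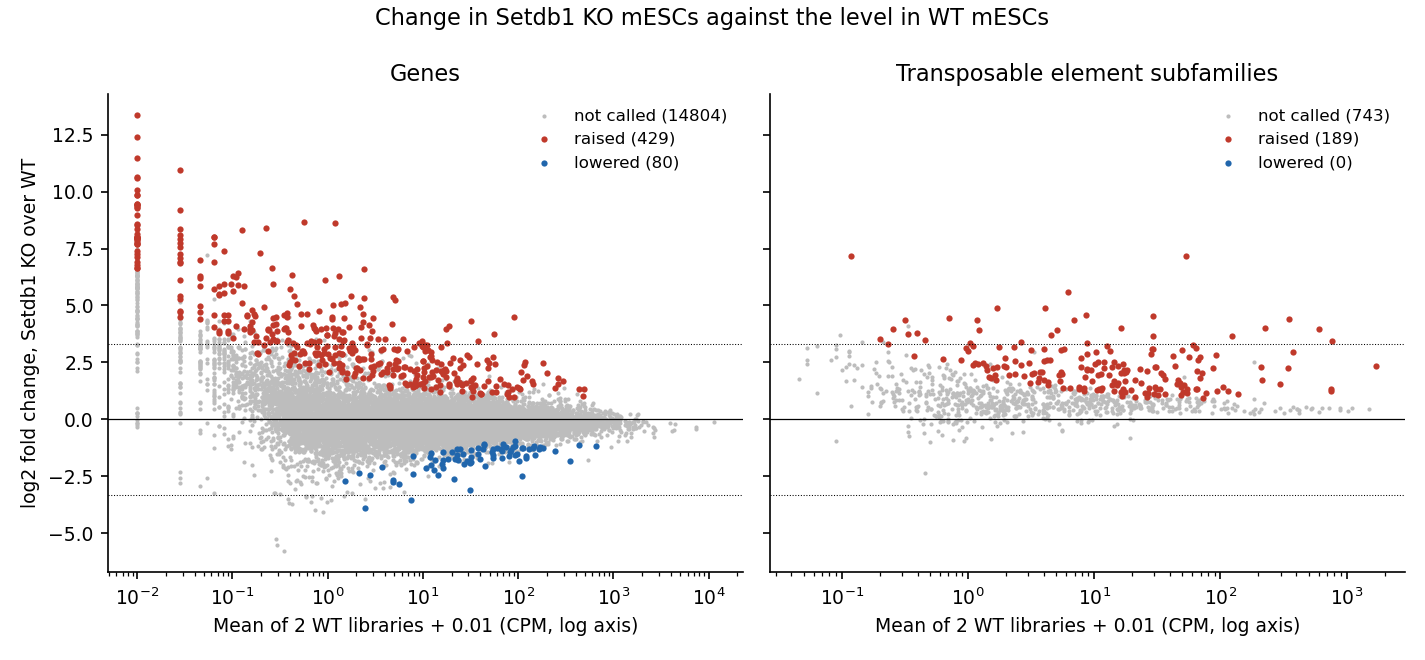
Log2 fold change of *Setdb1* KO over WT mESCs (vertical axis) against the mean level of 2 WT libraries in CPM plus 0.01 (log axis), for genes (left) and subfamilies of transposable elements (right); each point is 1 feature, and dotted lines mark 10-fold. The 429 raised genes lie mostly at low WT levels, the 80 lowered genes at higher ones, and subfamilies are shifted upwards as a whole, with 189 raised and 0 lowered. Genes with almost no counts in WT are tested only through other libraries and have no room to be called lowered, which shapes the difference in WT level.

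The genes with the smallest p among those raised do not share 1 function. *Clec2g*, *Clec2i* and *Clec2f* encode C-type lectins of the natural killer gene complex, and lie beside each other on chromosome 6. *Clec2g* was at 0 and 0.0361 CPM in WT libraries and at 89.1 and 51.7 CPM in KO libraries. With 1 count in WT, the ratio was 2857 (95% exact interval 512 to 112875, counting error only). *Clec2i* went from 0.870 and 0.974 to 66.0 and 67.3 CPM (log2 fold change 6.14, SE 0.34) and *Clec2f* from 0.261 and 0.108 to 32.4 and 22.5 CPM (7.31, SE 0.43), both at an edgeR adjusted p of 0.000178. The other 3 tested genes of the Clec2 and Klrb1 lectin list were higher in KO but not called, of 12 listed and 11 in the files. The 3 raised genes were called in every alternative fit that left out a library and without the block.

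*Mmp12* and *Mmp1b*, matrix metalloproteinases that cut extracellular matrix proteins, are neighbours on chromosome 9. *Mmp12* was at 0.0870 and 1.01 CPM in WT and 205 and 263 CPM in KO libraries (log2 fold change 8.68, SE 0.52, edgeR adjusted p = 0.000178). *Mmp1b* had no count in WT and 2214 and 902 counts in KO libraries, at least 388-fold higher against a floor of 3 counts per library. *Cd209c*, a lectin of the DC-SIGN family, was at 0.958 and 1.41 CPM in WT and 237 and 781 CPM in KO (8.64, SE 0.53, edgeR adjusted p = 0.000178).

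*Mep1b* encodes the beta subunit of meprin, a metalloprotease of gut and kidney, and *Cyp2b23* a cytochrome P450. *Mep1b* rose from 4.61 and 5.09 to 229 and 180 CPM (log2 fold change 5.38, SE 0.28, edgeR adjusted p = 0.000134). *Cyp2b23* rose from 6.79 and 3.32 to 203 and 153 CPM (5.23, SE 0.32, edgeR adjusted p = 0.000178). The remaining genes of the 15 with the smallest p include *2010005H15Rik*, *Gm7120*, *Gm4262* and *Dbhos*, a transcript on the strand opposite to *Dbh*. *Dbhos* went from 2.70 and 2.13 to 137 and 353 CPM. The study names default parameters for the counting without stating the use of strand. Whether its reads were kept apart from those of *Dbh* is therefore not known. *Gabrr1*, a GABA receptor subunit of the retina, was the 1 gene called among 25 tested glutamate and GABA receptor genes, a share near the 2.8% raised over all genes. It went from 0.174 and 0.325 to 15.1 and 41.8 CPM (6.67, SE 0.84, edgeR adjusted p = 0.00343).

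**Figure D2:**
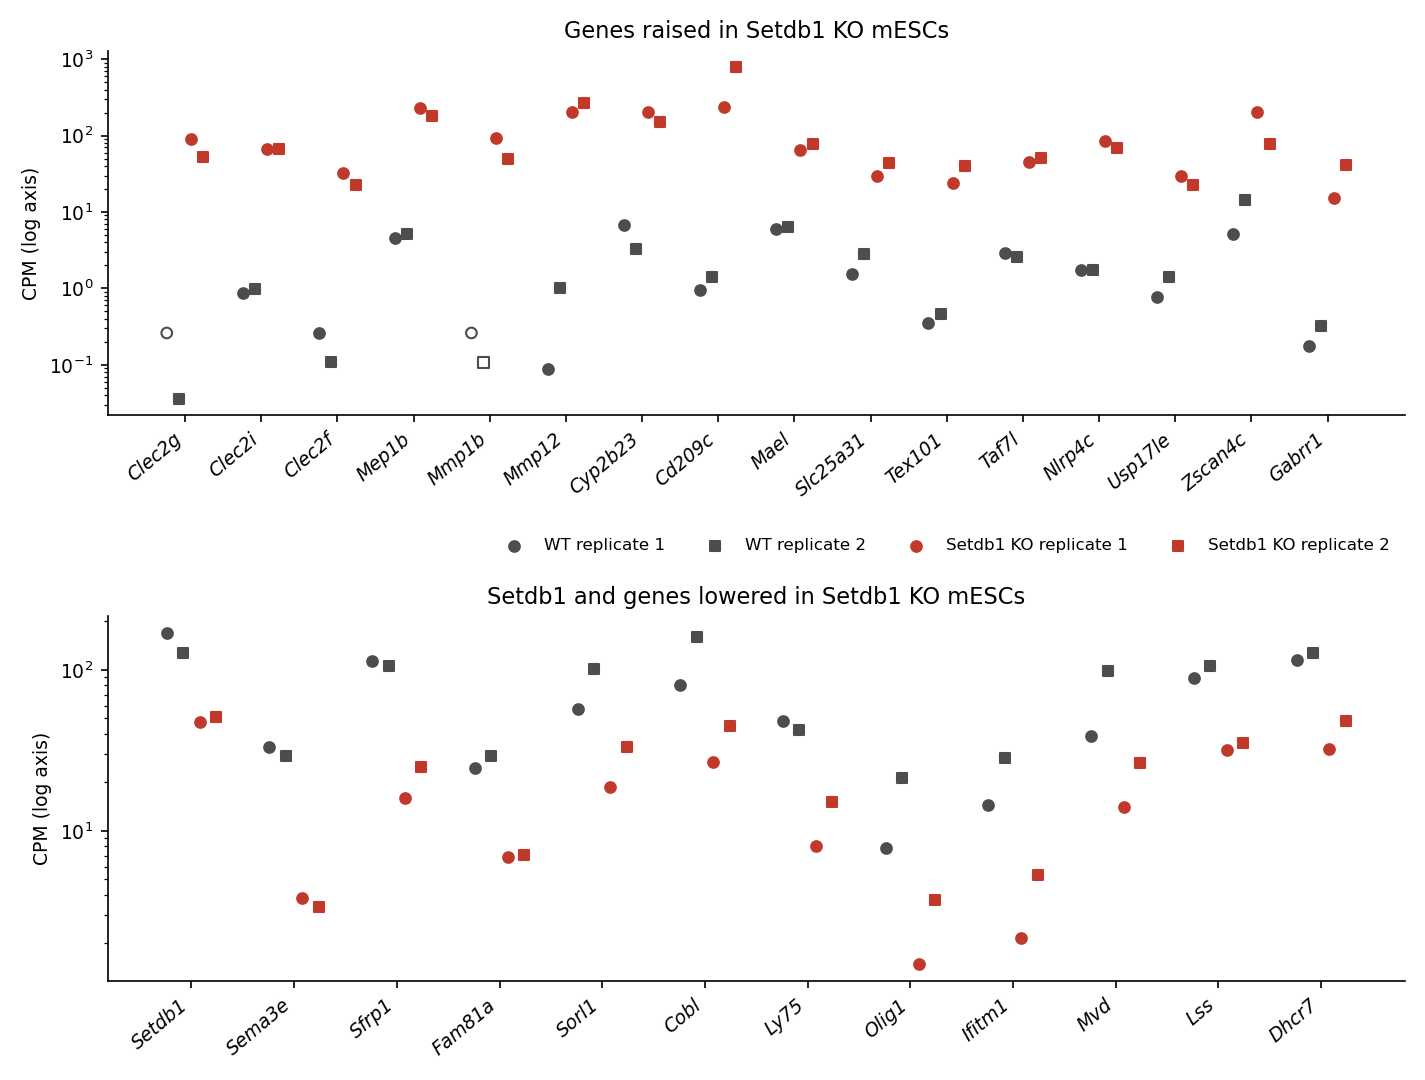
Level in CPM (log axis) of 16 raised genes (top) and of *Setdb1* with 11 lowered genes (bottom) in each of the 4 libraries; circles are replicate 1, squares replicate 2, grey WT and red *Setdb1* KO, and open symbols mark 0 counts, drawn at the floor of 3 counts. In each gene shown both KO libraries lie on the same side of both WT libraries. For most of the genes shown this was a rule of their selection.

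Genes that normally work in germ cells were described by 3 lists. Many such genes are silenced in somatic cells by DNA methylation at CpG-rich promoters, and in mESCs by the complex PRC1.6, in which MGA with MAX binds the E-box CACGTG and E2F6 binds TCCCGC. Over the lists together (meiosis, the piRNA pathway and other germline genes), 28 of 78 tested genes were raised, against 2.8% of all genes. Members silent in WT pass the count filter only through other libraries, so this share describes the members tested. The 300 bases around the start of 6 of the raised genes (250 before and 50 after, RefSeq, GRCm38.p6) are shown to make visible which of these letters stand there, in capitals where CACGTG or TCCCGC occurs on either strand (GCGGGA on the strand shown). *Mael* lies at chr1:166238695-166238994 (minus strand), *Sycp1* at chr3:102936051-102936350 (minus), *Hormad1* at chr3:95559427-95559726 (plus), *Dazl* at chr17:50293571-50293870 (minus), *Taf7l* at chrX:134476441-134476740 (minus) and *Slc25a31* at chr3:40708621-40708920 (plus).
Mael: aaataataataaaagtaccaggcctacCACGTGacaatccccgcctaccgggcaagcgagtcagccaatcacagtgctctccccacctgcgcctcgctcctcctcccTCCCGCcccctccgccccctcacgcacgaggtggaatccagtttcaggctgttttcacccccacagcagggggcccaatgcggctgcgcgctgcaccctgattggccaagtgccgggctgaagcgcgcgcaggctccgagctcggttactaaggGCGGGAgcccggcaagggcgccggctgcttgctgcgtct
Sycp1: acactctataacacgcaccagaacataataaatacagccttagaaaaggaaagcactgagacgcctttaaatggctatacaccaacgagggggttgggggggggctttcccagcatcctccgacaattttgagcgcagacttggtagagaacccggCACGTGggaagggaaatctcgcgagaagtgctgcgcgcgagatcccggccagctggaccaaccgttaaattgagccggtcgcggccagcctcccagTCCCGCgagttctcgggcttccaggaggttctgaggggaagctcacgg
Hormad1: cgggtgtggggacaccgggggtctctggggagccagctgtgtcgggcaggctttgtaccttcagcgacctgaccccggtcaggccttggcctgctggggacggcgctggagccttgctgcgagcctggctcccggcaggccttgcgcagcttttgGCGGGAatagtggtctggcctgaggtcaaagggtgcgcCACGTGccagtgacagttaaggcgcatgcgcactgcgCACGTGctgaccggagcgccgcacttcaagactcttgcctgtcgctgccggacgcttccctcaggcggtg
Dazl: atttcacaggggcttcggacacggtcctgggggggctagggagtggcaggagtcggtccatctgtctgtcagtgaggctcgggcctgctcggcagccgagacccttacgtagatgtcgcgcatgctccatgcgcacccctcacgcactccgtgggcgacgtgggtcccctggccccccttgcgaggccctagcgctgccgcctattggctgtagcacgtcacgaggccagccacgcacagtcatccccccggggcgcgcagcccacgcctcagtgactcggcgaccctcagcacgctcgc
Taf7l: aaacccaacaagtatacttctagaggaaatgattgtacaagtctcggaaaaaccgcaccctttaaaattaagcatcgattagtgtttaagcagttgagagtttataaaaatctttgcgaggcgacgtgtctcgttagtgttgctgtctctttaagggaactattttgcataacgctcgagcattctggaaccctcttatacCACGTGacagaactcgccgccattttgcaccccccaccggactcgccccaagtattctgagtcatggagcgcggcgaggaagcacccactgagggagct
Slc25a31: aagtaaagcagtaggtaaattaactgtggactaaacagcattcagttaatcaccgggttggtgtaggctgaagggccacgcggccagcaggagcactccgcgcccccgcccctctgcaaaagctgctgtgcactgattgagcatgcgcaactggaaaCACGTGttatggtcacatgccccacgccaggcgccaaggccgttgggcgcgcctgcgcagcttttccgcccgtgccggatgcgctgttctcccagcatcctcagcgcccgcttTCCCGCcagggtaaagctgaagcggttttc

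All of these windows but that of *Dazl*, which holds neither motif, contain CACGTG. *Mael*, *Sycp1*, *Hormad1* and *Slc25a31* hold both. Of 24 raised germline genes whose promoter RefSeq gave, 10 (41.7%) held CACGTG and 11 (45.8%) held TCCCGC, and 7 (29.2%) held both, against 9.97%, 34.5% and 3.77% of 11971 promoters of all tested genes. The germline genes that were tested and not raised held CACGTG in 6 of 46 promoters (13.04%) and both in 1 (2.17%). The 333 promoters of raised genes as a whole held CACGTG in 9.61% and TCCCGC in 16.5%, the latter against 34.5% of all tested and 34.4% of lowered genes. They also held fewer CpGs, with a median of 7 in 300 bases against 20 over all tested genes and 20 over 61 lowered genes. The raised germline genes had a median of 18. A match describes letters and is not evidence of binding.

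Of 34 tested meiosis genes (41 listed, 36 in the files) 11 were raised. They include *Sycp1*, *Sycp2*, *Syce1*, *Syce3* and *Tex12*, parts of the synaptonemal complex that holds paired chromosomes together. *Sycp2* went from 0.348 and 0.325 to 9.10 and 7.21 CPM (log2 fold change 4.57, SE 0.48, edgeR adjusted p = 0.0014). *Sycp1* went from 14.9 and 9.52 to 160 and 44.6 CPM (2.76, SE 0.35, edgeR adjusted p = 0.00364, without the block 0.205). *Taf7l*, a germ cell form of a TFIID subunit, was at 2.87 and 2.60 CPM in WT and 44.4 and 51.0 CPM in KO (4.14, SE 0.38, edgeR adjusted p = 0.000904). *Hormad1*, an axis protein of meiotic chromosomes, rose from 36.7 and 20.7 to 223 and 183 CPM (2.84, SE 0.38, edgeR adjusted p = 0.00444), and *Stag3*, a meiotic cohesin subunit, rose from 13.1 and 20.2 to 50.9 and 102 CPM. Not all meiosis genes moved: the list's median log2 fold change was 1.21, and 23 members, *Sycp3* among them (2.41, edgeR adjusted p = 0.0595), were not called. Of the 11, 8 were called whichever library was left out, 10 by DESeq2 on 4 libraries and 4 without the block.

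Of 21 tested piRNA pathway genes 8 were raised and 1, *Piwil4*, was lowered. The pathway silences transposons in germ cells with small RNAs carried by PIWI proteins. *Mael*, counted under meiosis too, had 5.92 and 6.42 CPM in WT and 64.1 and 77.7 CPM in KO (log2 fold change 3.52, SE 0.26, edgeR adjusted p = 0.0004). *Mov10l1*, the helicase that makes piRNA precursors, rose from 7.83 and 8.08 to 68.0 and 76.6 CPM (3.18, SE 0.25, edgeR adjusted p = 0.00053). *Rnf17*, a Tudor domain protein, rose from 69.9 and 37.8 to 412 and 280 CPM and *Ddx4*, the germ cell helicase VASA, from 40.3 and 23.95 to 124 and 85.4 CPM. *Fkbp6*, *Gtsf1*, *Piwil2* and *Tdrd12* were raised by 1.63 to 2.61 on the log2 scale. *Piwil4* fell from 1.74 and 2.53 to 0.339 and 0.495 CPM, a call made from 20, 70, 8 and 9 counts that was lost without the block and in each fit without 1 library. In all, 6 of the 9 calls were kept whichever library was left out, and 3 were made without the block.

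Of 24 tested genes of the third germline list (39 listed, 35 in the files) 10 were raised and *Ldhc*, a testis lactate dehydrogenase, was lowered. *Slc25a31*, the testis form of the mitochondrial ADP/ATP carrier, rose from 1.57 and 2.85 to 29.8 and 44.1 CPM (log2 fold change 4.07, SE 0.30, edgeR adjusted p = 0.000393). *Tex101*, a surface protein of germ cells, rose from 0.348 and 0.469 to 23.7 and 39.6 CPM (6.35, SE 0.47, edgeR adjusted p = 0.0004). *Dazl*, an RNA-binding protein needed for germ cell development, rose from 6.01 and 15.04 to 95.1 and 64.1 CPM (3.01, SE 0.43, edgeR adjusted p = 0.0057). *Xlr3c*, *Zfp37*, *Rpl10l*, *Tuba3a*, *Tuba3b*, *Dpep3* and *1700013H16Rik* were the other raised members. Of the 11 calls, 4 were kept whichever library was left out (*Dazl*, *Slc25a31*, *Tex101* and *Xlr3c*), and without KO replicate 1 the raised members were 5. The X-linked Rhox homeobox genes, which are also germline genes under DNA methylation, were measured too, and 0 of 8 tested members were called by edgeR, with 1 at an unadjusted p under 0.05 and 1 called by DESeq2 on all 8 libraries.

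Genes of the 2-cell embryo were raised in 16 of 30 tested members (32 listed, 31 in the files), against 2.8% of all genes. Their median log2 fold change was 3.26, or 3.09 with members absent from WT at their bound. Members silent in WT pass the count filter only through other libraries, so the share raised describes the members tested. In mouse embryos these genes are switched on at the first wave of zygotic transcription, and a small share of mESCs expresses them at any time. In bulk libraries more cells of that kind and more RNA per cell cannot be told apart. *Dux*, the homeobox gene that drives the programme, had 3 and 53 counts in WT and 56 and 209 in KO libraries, or 0.261 and 1.91 CPM against 2.37 and 11.5 CPM (2.63, SE 0.51, edgeR adjusted p = 0.0244, without the block 0.486). *Zscan4c*, a telomere and genome stability factor of that stage, was at 5.14 and 14.5 CPM in WT and 204 and 76.7 CPM in KO libraries (3.43, SE 0.70, edgeR adjusted p = 0.0296). All 6 listed *Zscan4* genes, *Zscan4a* to *Zscan4f*, were raised, by 3.10 to 3.87 on the log2 scale, and KO replicate 1 was above KO replicate 2 in each. The ubiquitin protease genes *Usp17la* to *Usp17le* were all raised too, *Usp17le* from 0.783 and 1.41 to 29.2 and 22.4 CPM (log2 fold change 4.4, SE 0.40, edgeR adjusted p = 0.000885). *Zfp352*, *Tcstv1*, *Gm2022* and *Gm5039* complete the 16. Many of these calls depended on the fit: 3 held without the block, 8 members were raised without KO replicate 1 and 25 without WT replicate 2, and 7 of the 16 were called in all 4 fits without 1 library. *Zscan4*, *Usp17l*, *Duxbl* and *Cphx* genes are near-identical copies whose shared reads the counting divides, so the values of single copies are uncertain.

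*Duxbl1*, *Duxbl2*, *Duxbl3*, *Cphx1* and *Cphx2*, homeobox genes of the preimplantation embryo, were raised along with *Dux* (6 of 6 tested, from a list made after values were seen). *Cphx1* was at 2.70 and 2.49 CPM in WT and 30.3 and 20.3 CPM in KO libraries (log2 fold change 3.28, SE 0.36, edgeR adjusted p = 0.00176), and *Cphx2* had nearly the same counts, 31 and 69 in WT. *Duxbl3* went from 8.01 and 2.67 to 30.3 and 55.2 CPM (3.02, SE 0.63, edgeR adjusted p = 0.0338). *Cphx1* and *Cphx2* were called without the block and in each fit without 1 library, and *Dux* and the 3 *Duxbl* genes were lost without the block and without KO replicate 2.

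Of 8 tested oocyte *Nlrp* genes (13 listed, 12 in the files) 3 were raised, against 2.8% of all genes. Members silent in WT could be tested only through other libraries, so this share describes the members tested. *Nlrp4c*, a gene the study followed, was at 1.74 and 1.73 CPM in WT and 85.7 and 68.9 CPM in KO libraries (log2 fold change 5.40, SE 0.47, edgeR adjusted p = 0.000643). *Nlrp4a* rose from 1.92 and 2.60 to 12.7 and 15.1 CPM. *Nlrp4e* had 0 counts in WT and 18 and 10 in KO libraries, at least 3.55-fold higher, a call lost without the block (edgeR adjusted p = 0.105) and without any 1 of the 4 libraries (0.0862 to 0.131). The study's *Gm4971* was at 0.261 and 0.577 CPM in WT and 2.96 and 0.605 CPM in KO libraries (1.66, SE 0.66, edgeR adjusted p = 0.235), and *Trpd52l3* had 0 and 1 counts in WT and none in KO libraries. The study reported the upregulation of *Nlrp4c*, *Gm4971* and *Trpd52l3* by qRT-PCR in *Setdb1* KO mESCs treated with UNC0642. Its qRT-PCR covered each condition, and for all 3 genes UNC0642 added to the expression in *Setdb1* KO mESCs. The study showed RNA-seq profiles of these genes too. qRT-PCR is another assay than the counts given here. Of 15 tested Prame-like and Oog genes 7 were raised, *Pramel1* from 5.05 and 3.35 to 23.996 and 15.4 CPM and *Pramef25* from 0.261 and 0.649 to 3.22 and 6.33 CPM. These leucine-rich repeat genes form large arrays that are active in oocytes and testis. Of the 7 calls 1, for *Pramef17*, was kept whichever library was left out, and leaving out KO replicate 2 left 2.

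Imprinted genes are expressed from 1 parental allele, and 4 of 31 tested members of that list were raised and 1 lowered. Over all genes 2.8% were raised and 0.522% lowered. *Rian* and *Meg3*, maternally expressed long RNAs of the same locus on chromosome 12, had 0 and 3, and 0 and 1 counts in WT. *Rian* had 104 and 626 counts in KO libraries, a ratio of 228 (95% exact interval 77.8 to 1109), and *Meg3* had 31 and 280 counts, a ratio of 292 (52.0 to 11558). For both, KO replicate 2 was higher than KO replicate 1. *Rian* was called in each fit (edgeR adjusted p = 0.00125, without the block 0.033), and *Meg3* (0.00985) was lost without WT replicate 2 (0.0755) and without KO replicate 2 (0.0569), and without the block (0.0635). *Kcnq1ot1*, the long RNA antisense to *Kcnq1*, rose from 12.5 and 7.25 to 44.5 and 26.8 CPM (log2 fold change 1.86, SE 0.25, edgeR adjusted p = 0.00452, without the block 0.22). *Impact* was raised (edgeR adjusted p = 0.0453), a call that was kept without WT replicate 1 alone, and *Phlda2* was lowered (0.0491), a call lost without any 1 of the 4 libraries.

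Genes of immune recognition and of cell death are read against 2.8% raised and 0.522% lowered over all genes. Of 27 tested genes of viral RNA sensing and the interferon response, which retroviral RNA can switch on, 0 were raised (2 higher at an unadjusted p under 0.05, 0 by DESeq2 on all 8 libraries). *Ifitm1* and *Ifitm3*, membrane proteins that block virus entry and are well expressed in mESCs, were lowered. *Ifitm1* was at 14.5 and 28.2 CPM in WT and 2.16 and 5.34 CPM in KO libraries (log2 fold change -2.60, SE 0.39, edgeR adjusted p = 0.00713, without the block 0.366). Of 26 MHC class I and antigen processing genes 1 was raised, *H2-Q4*, from 19.8 and 15.3 to 90.9 and 62.5 CPM (2.12, SE 0.24, edgeR adjusted p = 0.0019, without the block 0.057). Of 7 tested NKG2D ligand genes, which mark stressed cells for natural killer cells, 4 were raised in a list made after values were seen (*Raet1c*, *Raet1e*, *H60b* and *Ulbp1*, by 1.43 to 2.89 on the log2 scale). None of the 4 was called without the block, and *H60b* was called in every fit without 1 library, while 1 member was raised without KO replicate 1 or KO replicate 2. Of 33 p53 target and cell death genes 1 was raised, *Casp8*, from 7.57 and 7.03 to 48.3 and 22.4 CPM (2.22, SE 0.38, edgeR adjusted p = 0.013, without KO replicate 1 0.0911). In this list 6 members were higher and 0 lower at an unadjusted p under 0.05, and DESeq2 on all 8 libraries called 4 higher.

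The pluripotent state was checked by its markers. *Pou5f1* was at 566 and 872 CPM in WT and 754 and 852 CPM in KO libraries, and *Sox2* at 710 and 597 against 749 and 539 CPM. None of 23 core and naive pluripotency factors was called by edgeR (3 higher at an unadjusted p under 0.05, 2 by DESeq2 on all 8 libraries), and their median log2 fold change was 0.17. Of 13 tested markers of primed cells and germ layers 2 were raised, against 2.8% of all genes. *Otx2*, a factor of the exit from naive pluripotency, rose from 60.4 and 32.9 to 321 and 228 CPM (2.60, SE 0.40, edgeR adjusted p = 0.00851) and *Fgf5*, a marker of the postimplantation epiblast, from 0.0870 and 0.469 to 13.6 and 5.06 CPM (4.47, SE 0.93, edgeR adjusted p = 0.0319). *Fgf5* was not called without WT replicate 1 (0.0521), KO replicate 1 (0.101) or KO replicate 2 (0.0556). The summed level of this list was 159 to 200 CPM in WT and 365 to 485 CPM in KO libraries, and without *Otx2* it was 126 to 140 CPM and 137 to 164 CPM. The list's median log2 fold change was 0.28, and *Sox1* and *Mixl1* were lower at an unadjusted p under 0.05. Of 11 tested trophoblast markers *Esx1* was lowered and 0 were raised. At an unadjusted p under 0.05, 4 of them were higher and 1 was lower, and DESeq2 on all 8 libraries called 1 each way. *Tpbpa*, *Prl3d1* and *Ctsq* were at 0 counts in all 4 libraries. The feeder cell markers were not called (0 of 12 by edgeR, 0 at an unadjusted p under 0.05 and 0 by DESeq2), with *Fn1* at 493 to 524 CPM in all 4 libraries, *Dcn* at 0 counts in WT and *Col1a1* at 1.397 to 9.60 CPM, higher in replicate 2 of both groups.

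**Figure D3:**
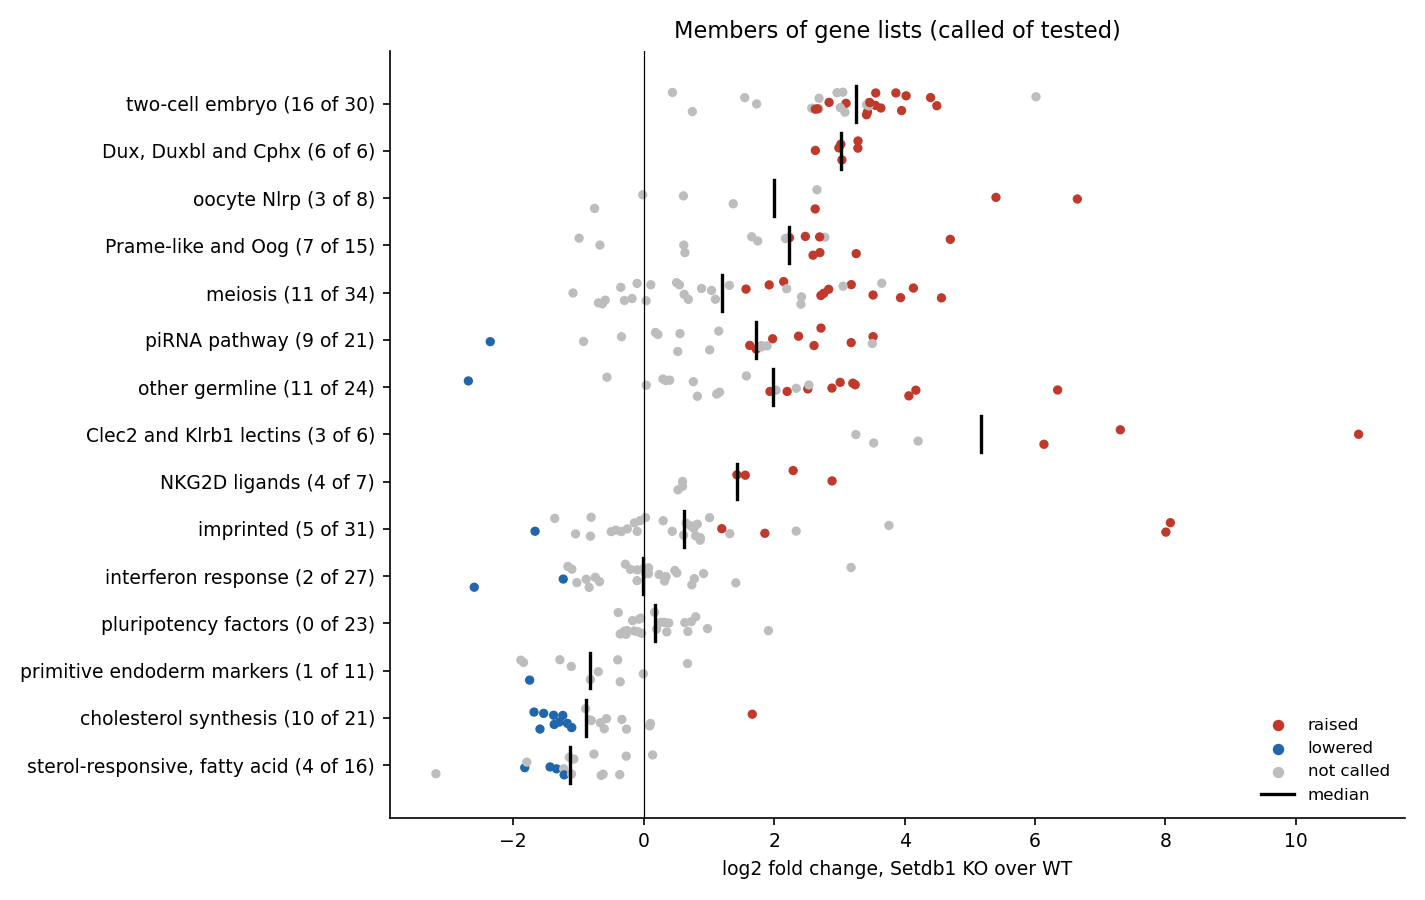
Log2 fold change of *Setdb1* KO over WT mESCs (horizontal axis) for the tested members of 15 gene lists (1 row each, vertical scatter arbitrary); points are genes, black bars medians, and the numbers in brackets are members called of members tested. Germline, oocyte and 2-cell lists lie mostly to the right, pluripotency factors lie around 0 with 0 of 23 called, and cholesterol synthesis genes lie mostly to the left with *Idi1* on the right.

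Lowered genes were fewer and changed less. *Sema3e*, a secreted guidance cue of vessels and axons, was the gene with the smallest p: it was at 33.2 and 29.2 CPM in WT and 3.81 and 3.36 CPM in KO libraries (log2 fold change -3.12, SE 0.32, edgeR adjusted p = 0.00126). It was the 1 lowered gene that was called without the block (0.0177). *Sfrp1*, a secreted inhibitor of Wnt signalling, fell from 114 and 106 to 15.96 and 24.9 CPM (-2.51, SE 0.40, edgeR adjusted p = 0.00957, without KO replicate 1 0.0647). *Ly75*, an endocytic receptor, fell from 48.3 and 42.2 to 8.04 and 15.02 CPM (-2.04, SE 0.32, edgeR adjusted p = 0.0095, without KO replicate 1 0.0858). *Olig1*, a neural transcription factor, was at 7.83 and 21.2 CPM in WT and 1.48 and 3.74 CPM in KO libraries (-2.45, SE 0.36, edgeR adjusted p = 0.00632). *Fam81a*, *Sorl1*, a sorting receptor, and *Cobl*, an actin nucleator, fell by 1.95, 1.62 and 1.71 on the log2 scale. In the last 2 the lowest WT library was above the highest KO library, at 57.3 against 33.1 CPM and at 80.7 against 44.9 CPM, and both calls were lost without KO replicate 1 (0.0638 and 0.0596), that of *Cobl* also without KO replicate 2 (0.0632).

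Enzymes of cholesterol synthesis formed a group among the lowered genes. The list was made after values were seen, and 9 of its 21 tested members were lowered and 1 was raised. Over all genes 0.522% were lowered and 2.8% raised. *Mvd* fell from 38.8 and 97.9 to 14.1 and 26.6 CPM (log2 fold change -1.68, SE 0.26, edgeR adjusted p = 0.00823), *Lss* from 88.4 and 105 to 32.0 and 34.9 CPM (-1.53, SE 0.25, edgeR adjusted p = 0.0105) and *Dhcr7* from 115 and 127 to 32.5 and 48.0 CPM (-1.59, SE 0.29, edgeR adjusted p = 0.0199). *Acat2*, *Fdps*, *Sc5d*, *Nsdhl* and *Msmo1* were lowered by 1.11 to 1.38 in size on the log2 scale. The exception was *Idi1*, isopentenyl diphosphate isomerase, at 377 and 220 CPM in WT and 1217 and 689 CPM in KO libraries (1.66, SE 0.33, edgeR adjusted p = 0.0254). *Hmgcs1* (0.10) and *Cyp51* (0.09) were not called. The list's median log2 fold change was -0.89, and 18 of 21 members were lower. Of 16 further sterol-responsive and fatty acid genes, also listed after values were seen, *Scd1*, *Fads2*, *Elovl5* and *Stard4* were lowered and 15 were lower. None of these 14 calls was made without the block or kept whichever library was left out, and DESeq2 on the 4 libraries made none of them.

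Markers of primitive endoderm were lower in 10 of 11 tested members, with a median log2 fold change of -0.82. *Lama1* alone was called, from 17.0 and 62.6 to 5.80 and 17.1 CPM (log2 fold change -1.75, SE 0.40, edgeR adjusted p = 0.048), and in it the KO range overlaps that of WT. WT replicate 2 was the highest library for *Gata6*, *Dab2* and *Cubn*, at 16.1, 11.3 and 15.7 CPM, where WT replicate 1 had 2.00, 1.31 and 1.04 CPM. The summed level of the list was 176 and 321 CPM in WT and 202 and 187 CPM in KO libraries, and *Afp*, *Ttr* and *Apoa1*, markers of the mature endoderm, had too few counts to be tested. The part of these cells in the lowered genes was not tested.

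Transposable elements took 3.70% and 2.77% of the counts in WT and 11.7% and 9.22% in KO libraries. LTR elements, which derive from retroviruses, rose from 1.09% and 0.921% to 5.43% and 5.82% of all counts, and LINEs from 0.618% and 0.417% to 3.33% and 1.48%. SINEs had 1.66% and 1.19% in WT and 2.16% and 1.52% in KO libraries. Each subfamily counts all its copies in the genome, and reads that fit several copies are shared among them. Of all 932 subfamilies 878 (94.2%) had a higher fitted level in KO than in WT, so that the count within a group is read against 20.3% raised and a median of 0.90.

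The ERVK family, which holds the youngest mouse retroviruses, had 95 of 273 tested subfamilies raised, 34 of them also without the block and 65 by DESeq2 on the 4 libraries. *MMERVK10C-int*, the internal part of a Mus musculus retrovirus of that family, showed the largest change by size among the 10 subfamilies with the smallest p, from 67.5 and 39.8 to 5652 and 8834 CPM (log2 fold change 7.19, SE 0.50, edgeR adjusted p = 0.000352, without the block 0.00613). *RLTR10C*, an LTR of related elements, rose from 4.00 and 4.11 to 92.0 and 148 CPM (4.87, SE 0.33, edgeR adjusted p = 0.000347). In the MMERVK10 and RLTR10 group 10 of 13 were raised. Of 25 intracisternal A particle (IAP) subfamilies, a family that still transposes, 21 were raised with a median log2 fold change of 2.53, and all 25 were higher. *IAPEz-int*, the coding part of its main form, rose from 418 and 281 to 6026 and 8234 CPM (4.42, SE 0.37, edgeR adjusted p = 0.000623) and *IAPEy-int* from 7.31 and 4.98 to 195 and 398 CPM (5.60, SE 0.45, edgeR adjusted p = 0.00053). In both and in *MMERVK10C-int* KO replicate 2 was above KO replicate 1. Of the 21 raised IAP subfamilies 10 were called without the block and 17 by DESeq2 on the 4 libraries. All 5 ETn/MusD subfamilies were raised by 2.35 to 3.00 on the log2 scale, *MMETn-int* from 2091 and 1319 to 9253 and 7475 CPM. *MMETn-int* was already the most abundant of them in WT, and its call was lost without the block (0.22).

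Of 103 ERV1 subfamilies, the gammaretrovirus class, 25 were raised, 11 of them also without the block and 17 by DESeq2 on the 4 libraries. *RLTR1B* had the smallest p of all subfamilies, from 9.84 and 7.36 to 218 and 195 CPM (log2 fold change 4.602, SE 0.26, edgeR adjusted p = 0.000178). Its group, GLN, had 5 of 7 raised, with *MMERGLN-int* from 792 and 746 to 8620.2 and 8006 CPM (3.43, SE 0.29, edgeR adjusted p = 0.000612). The 5 VL30 subfamilies were raised, *RLTR6-int* from 28.9 and 28.8 to 229 and 257 CPM (3.07, SE 0.25), and both MuLV subfamilies were raised (2.22 and 2.63), the latter pair losing the call without the block.

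Older LTR groups changed less. Of 94 ERVL subfamilies 4 were raised, and of 87 MaLR subfamilies 10. In MERVL, the element that marks 2-cell-like cells, the LTR *MT2_Mm* was raised, from 10.6 and 17.3 to 128 and 46.9 CPM (log2 fold change 2.30, SE 0.52, edgeR adjusted p = 0.0471), a call not made without the block (0.194) and not kept whichever library was left out. *MERVL-int* went from 97.8 and 270 to 1916 and 709 CPM (2.50, SE 0.67, edgeR adjusted p = 0.0844) and was not called. KO replicate 1 was above KO replicate 2 in MERVL and in the *Zscan4* genes. Internal parts of LTR elements were raised in 48 of 113 subfamilies (median 1.38), and LTRs in 86 of 458 (median 1.09).

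All 6 L1Md subfamilies, the young mouse LINE-1 elements, were raised. *L1Md_T* rose from 643 and 563 to 17991.5 and 5060.4 CPM (log2 fold change 3.99, SE 0.44, edgeR adjusted p = 0.00176, without the block 0.0592) and *L1Md_A* from 153 and 94.0 to 2378 and 955 CPM (3.65, SE 0.31, edgeR adjusted p = 0.000643). Their summed level was 1391 and 1025 CPM in WT and 24686 and 7704 CPM in KO libraries, so KO replicate 1 was far above KO replicate 2, and 1 of the 6 was called without the block. All 6 were called in each fit without 1 library. Over the whole L1 family 45 of 127 were raised, and 1 without the block. Of 36 SINE subfamilies 0 were raised by edgeR (5 higher at an unadjusted p under 0.05, 0 by DESeq2 on all 8 libraries), and of 163 DNA transposons 5. Of 5 tested satellites *MMSAT4* and *GSAT_MM*, the major satellite of mouse centromeres, were raised, but *GSAT_MM* had 95.1 and 4.15 CPM in WT and 475 and 70.4 CPM in KO libraries, so that the groups overlap. Both calls were lost without the block (edgeR adjusted p = 0.545 for *MMSAT4* and 0.82 for *GSAT_MM*) and without KO replicate 1 (0.383 and 0.109).

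**Figure D4:**
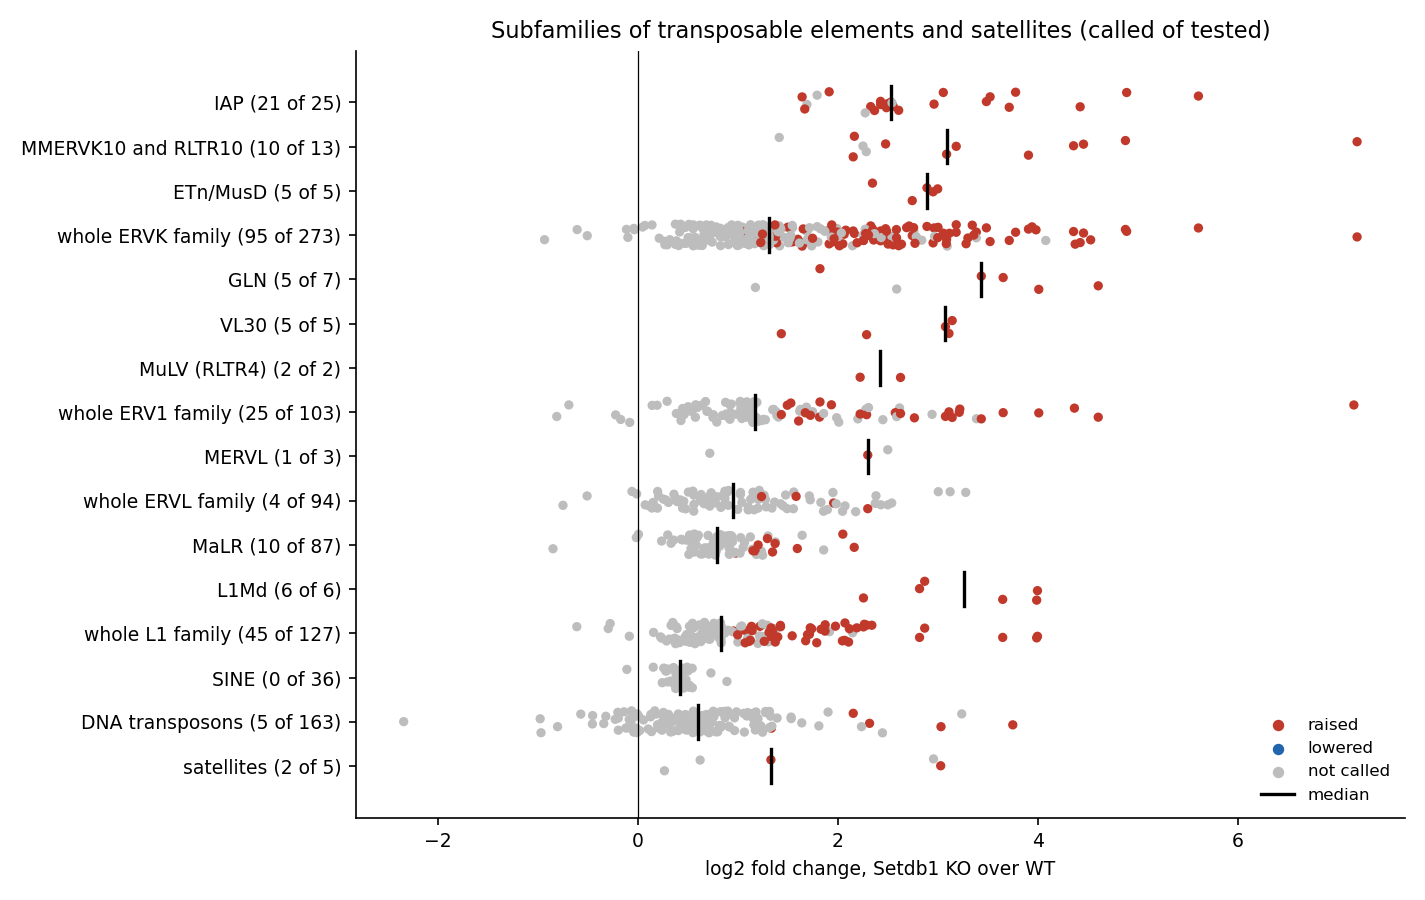
Log2 fold change of *Setdb1* KO over WT mESCs (horizontal axis) for the tested subfamilies of 16 groups of transposable elements and satellites (1 row each, vertical scatter arbitrary, smaller groups are part of the family rows); points are subfamilies, black bars medians, and the numbers in brackets are subfamilies called of those tested. IAP, MMERVK10, ETn/MusD, GLN, VL30 and L1Md lie above 1 throughout, and SINEs stay below 1 with 0 of 36 called.

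The raised genes were grouped along the chromosomes. Positions were found for 15231 tested genes (99.5%) in RefSeq GRCm38.p6, and 422 of them were raised. A raised gene had another raised gene within 200 kb in 147 cases (34.8%), against 10.4% of all tested genes and 7.5% of the lowered genes. Taking 3 or more raised genes with at most 200 kb between neighbours as a cluster gave 22 clusters with 81 genes. The number was 15 at 100 kb and 31 at 500 kb, and 5 with the genes called without the block, 9 without KO replicate 1 and 16 with DESeq2 on the 4 libraries. Many clusters are arrays of related genes whose copies share reads, so that their members are not independent.

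The largest cluster lies on chromosome 14 (25888403 to 26269434) with 7 raised of 9 tested genes, *Plac9a*, *Plac9b*, *Cphx1*, *Cphx2* and the 3 *Duxbl* genes. The 6 *Zscan4* genes form the second on chromosome 7 (10794241 to 11402318), where all 6 tested genes were raised. A pair of clusters on chromosome 5 (14910124 to 15033016 and 15619099 to 15714596) hold 5 and 4 genes, with every tested gene raised. They are spermatogenesis-associated *Speer* genes and their relatives, with 0 to 5 counts in a WT library. Genes at such counts pass the count filter only through other libraries in which they are high. The share raised among those tested is therefore not a result about these arrays. *Speer4e* had 0 and 3 counts in WT and was at 9.31 and 23.7 CPM in KO libraries, a ratio of 204 (95% exact interval 69.3 to 989). *Gm17019* had no count in WT and was at least 76.9-fold higher, at 7.32 and 21.1 CPM. In both *Speer* clusters KO replicate 2 was above KO replicate 1 in every gene, the opposite order to that of the *Zscan4* genes.

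Other arrays were raised over short spans. The Clec2 cluster on chromosome 6 (128887587 to 129021342) had 3 raised of 6 tested genes, and all 6 were higher. The metalloproteinase cluster on chromosome 9 (7344397 to 7510242) held *Mmp12*, *Mmp1b* and *Mmp10*, which had 0 counts in WT and was at least 21.4-fold higher. The lectin cluster on chromosome 8 (3707066 to 3954746) held *Cd209c*, *Cd209d* and *Clec4g*. *Raet1e*, *H60b* and *E030030I06Rik* lie within 176 kb on chromosome 10, and 5 Prame-like genes within 335 kb on chromosome 4. On chromosome 8 (21055040 to 21192550) the alpha-defensin genes *Defa23* and *Defa-rs7* and *Gm15284* had 2 or 3 counts over both WT libraries, *Gm15284* with a ratio of 22.8 (95% exact interval 7.51 to 113). Other clusters hold genes of no shared family: *Mbd1*, *Ccdc11* and *Myo5b* on chromosome 18, *Fam208b*, *Asb13* and *2810429I04Rik* on chromosome 13, and *Mov10l1*, *Dennd6b* and *Syce3* on chromosome 15, where the other 15 tested genes in the span were not called.

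Of the 22 clusters 4 are on the X chromosome, among them 3 *Dmrtc1* genes and *Ott*, a testis gene. The X chromosome had 37 of 592 tested genes raised (6.25%), the largest share of any chromosome, with chromosome 19 at 0.787% and chromosome 11 at 0.899% at the other end. By gene type, 35 of 580 long noncoding RNAs (6.03%), 16 of 161 transcribed pseudogenes (9.94%) and 368 of 14329 protein-coding genes (2.57%) were raised. Genes silent in WT could be tested only through other libraries. The shares by chromosome and by type therefore describe the tested genes, and differences between them were not tested. Zinc finger genes named Zfp were raised in 20 of 346 tested, against 2.8% of all genes. Olfactory receptor genes, normally active in the nose, were raised in 7 of 23 tested. Members silent in WT could be tested only if other libraries had counts, so that this share is not set against that of all genes.

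The same deletion was also measured in the presence of UNC0642, in 4 libraries that do not enter the KO and WT values but share the fit's estimate of spread and its replicate block. There 445 genes (2.91%) were raised and 135 (0.882%) lowered between UNC0642-treated *Setdb1* KO and UNC0642-treated mESCs. Of the 429 genes raised without UNC0642, 427 had the same sign with it and 280 were raised, at a median log2 fold change of 2.46 against 3.21. The 2 exceptions were *Dennd6b* and *Zkscan8*. All 80 lowered genes kept their sign and 36 were lowered. All 189 raised subfamilies had the same sign and 154 were raised. Over all features 74.6% of genes and 89.4% of subfamilies had the same sign in both comparisons, and the fold changes correlated at r = 0.763 across 15313 genes and 0.850 across 932 subfamilies, which are not independent replicates.

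Calls were also compared within groups. The 3 Clec2 genes, the 3 *Nlrp4* genes and 21 of 21 raised IAP subfamilies were raised in both. Of the 16 raised 2-cell genes 1 was raised with UNC0642: *Zscan4c* changed by 0.89 (edgeR adjusted p = 0.5) and *Dux* by 0.69 (0.494) there. *Zscan4b* was already at 131 and 41.5 CPM with UNC0642 alone, against 1.48 and 4.33 CPM in WT, and at 303 and 88.7 CPM in UNC0642-treated KO libraries. Of the 9 lowered cholesterol enzymes none was lowered with UNC0642, *Mvd* changing by -0.90 (edgeR adjusted p = 0.0958), while *Idi1* was raised in both (1.66 and 2.51). Of 33 p53 target and cell death genes 11 were raised with UNC0642, against 2.91% of all genes, and 1, *Casp8*, was raised in both. These differences were tested as an interaction, and no feature passed: the smallest edgeR adjusted p was 0.537, with 379 features at an unadjusted p under 0.05. A call in one comparison and not in the other is therefore not shown to be a difference.

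**Figure D5:**
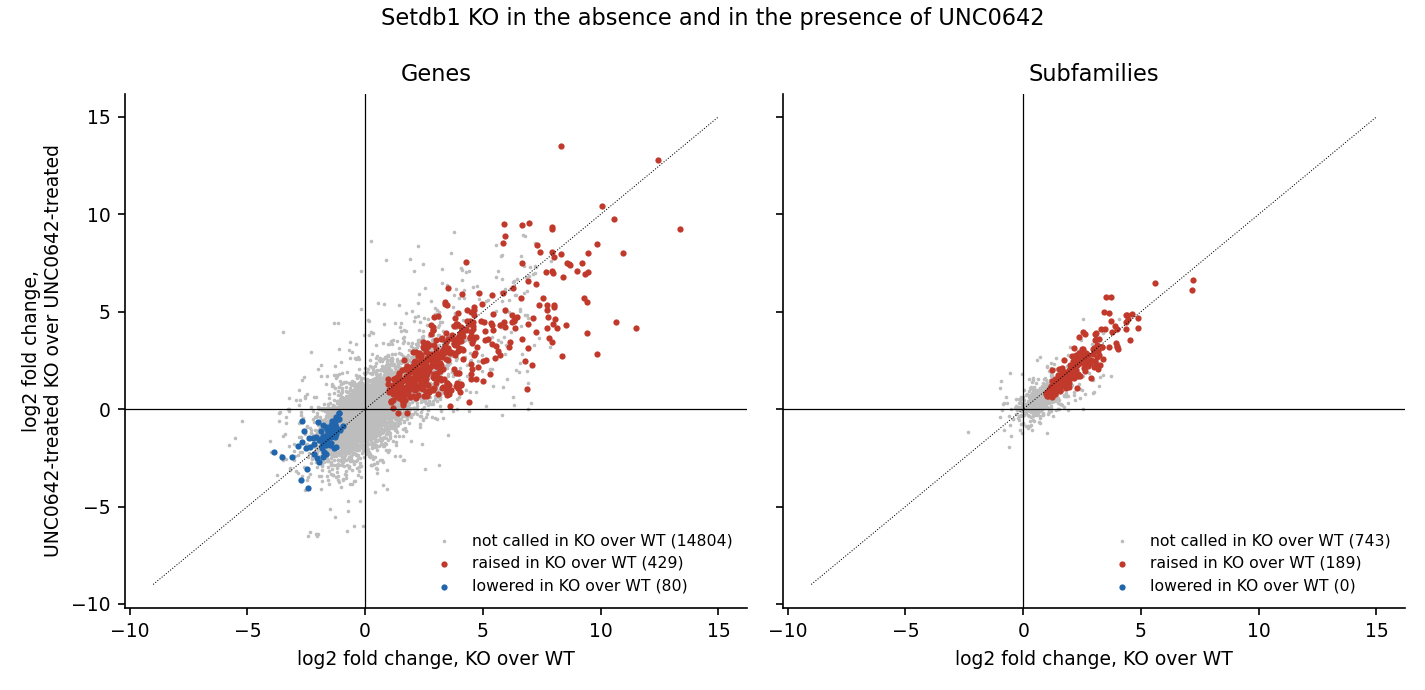
Change of *Setdb1* KO over control mESCs, both treated with UNC0642 (vertical axis, log2 fold change), against that of *Setdb1* KO over WT mESCs (horizontal axis) for genes (left) and subfamilies (right); each point is 1 feature, coloured by its call in KO over WT, and the dotted line marks equal change. Of 429 raised genes 427 and of 80 lowered genes 80 keep their sign, and the raised subfamilies lie close to the line.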

How the data were processed

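Poly(A) RNA was sequenced from 8 libraries. The authors trimmed the reads (Trim Galore 0.3.7 and TopHat2 are named in the submitters' processing notes, with mm10), mapped them and counted them with TEtranscripts, which shares reads with several positions among genes and subfamilies. What the authors deposited are raw counts, with no normalization, for genes and for subfamilies. The study names default parameters for TEtranscripts and does not state the annotation or the use of strand.

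Groups and replicate numbers follow the labels. The members of the comparison, the gene lists and the tests were chosen with earlier results of these data known, and 4 lists (cholesterol synthesis, sterol-responsive and fatty acid genes, NKG2D ligands, Duxbl and Cphx) after values were seen. edgeR 4.0.16 (R 4.3.3) kept features by filterByExpr (minimum count 10, minimum total 15), scaled them by TMM over genes and subfamilies, and fitted a quasi-likelihood model to all 8 libraries with 1 coefficient per condition and the replicate number as a block (3 residual degrees of freedom). Fold changes used a prior count of 0.125. P-values were adjusted by Benjamini-Hochberg over 16245 features. The SE was computed from the fold change and its F statistic. Over 6 pairs of conditions, deviations of same-numbered libraries from their group means correlated between 0.285 and 0.663 across 15313 genes, 0.285 for WT and KO, and every pair exceeded 0.1, so that the numbers were taken to pair the samples; the study calls them biological replicates and does not say what a number marks.

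Genes with 0 counts in WT were set against a floor of 3 counts per library, and ratios over 1 to 3 counts have exact 95% intervals from the binomial distribution. The genes named are *Setdb1* and H3K9 methyltransferase genes, the 15 raised and 10 lowered genes and 10 subfamilies with the smallest p whose groups do not overlap, up to 4 called members per list, members of clusters and the genes of the study; others were named after their values were seen, and 1 list member is not reported here by name. Alternatives were DESeq2 1.42.0 on 8 and on 4 libraries, edgeR on 4 libraries, no block, RLE and total counts normalization, TMM from genes only, no count filter, thinned counts, a prior count of 2, other cluster distances and leaving out each library. The fits were tested on simulated data. Figures used matplotlib 3.10.9.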

Additional observations from a re-analysis of the deposited data

How the results depend on the processing

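The replicate block had the largest effect. Without it edgeR called 135 genes raised, 1 lowered, 112 raised and 0 lowered over 10-fold, 46 subfamilies raised, 133 genes raised with UNC0642 and 5 clusters, and 120 of 226 named features lost their call. On the 4 libraries alone edgeR with the block (1 residual degree of freedom) gave 182 raised and 6 lowered genes, 125 and 1 over 10-fold, 76 subfamilies and 7 clusters. DESeq2 on all 8 libraries gave 748 raised and 305 lowered genes, 4 lowered over 10-fold, 306 subfamilies, 756 genes raised with UNC0642 and 48 clusters, and DESeq2 on 4 libraries 21 lowered genes and 108 subfamilies. Thinned counts gave 5 and a prior count of 2 gave 0 genes lowered over 10-fold, and 36 clusters were found with no count filter. Leaving out 1 library gave 242 to 426 raised and 16 to 180 lowered genes, 154 to 226 raised and 1 to 9 lowered over 10-fold, 99 to 158 subfamilies, 467 to 731 genes raised with UNC0642 and 9 to 20 clusters. None of 187 called named features changed sign in a fit without 1 library, but 12 of 39 named features that were not called did, *Trim28* with log2 fold changes from -0.65 to 0.78. Normalization by RLE, by total counts or by TMM from genes only left the counts of raised and lowered genes within 1.5 times, and total counts moved the median log2 fold change of all genes from -0.07 to -0.14. With 2 libraries per group and WT replicate 1 at 11702590 counts, changes of genes near 3 counts per library could not be resolved.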
